A study of Mus musculus with 36 samples.

Results

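Hmox1, Nqo1, Gclm, Gclc, Txnrd1, Srxn1, Slc7a11, Gsr and Prdx1 are antioxidant and detoxification genes that the transcription factor NRF2 is known to switch on. They were taken by their symbols from the TPM values of the study, all 9 of 9 were found among its 24411 genes, and the rule that picks them is their names alone, though the set was proposed with earlier results of these data known. The study asked how loss of Taf1, the largest subunit of the general transcription factor TFIID, changes the differentiation of mouse haematopoietic stem and progenitor cells in culture. Cells of the bone marrow were taken from mice with a conditional Taf1 knockout and from control mice labelled wild type, and RNA was sequenced from 36 libraries in 12 groups of 3. The knockout groups were day 0 cells, day 3 cells grown in SCF and IL-3, and cells of days 5 and 7 from a macrophage course or a granulocyte course, and the control groups were the same 6 stages. The macrophage course ran from day 3 in GM-CSF and M-CSF and, for its last days, in M-CSF alone. The granulocyte course ran in SCF, IL-3 and G-CSF and then in G-CSF alone, and cytokine concentrations were 50 ng/ml throughout, with horse serum at 20%. The sources do not say which part of Taf1 is removed or by what means, nor that replicates are separate mice. The p-values therefore cover the spread among these libraries, which may be technical.

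NRF2, made from Nfe2l2, is bound in resting cells by KEAP1, which passes it to the CUL3 and RBX1 ubiquitin ligase for destruction. Electrophiles and oxidants modify KEAP1, NRF2 then builds up, pairs with a small MAF protein and binds antioxidant response elements beside its target genes, from which BACH1 otherwise keeps it away, most of all at Hmox1. The products recycle and make glutathione, feed the thioredoxin and peroxiredoxin system and break down haem and quinones, and macrophages and granulocytes need them beside their own oxidant production.

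The core of the antioxidant response element is the letters TGACNNNGC, and these letters were searched on both strands of 300-base windows around the gene starts in RefSeq's GRCm38.p6 tables, from 250 bases before each start to 50 after it. Of the 9 genes, 6 had an entry there: Nqo1, Gclm, Txnrd1, Srxn1, Slc7a11 and Prdx1. The letters occurred in 12.4% of 32851 windows of all genes. They occurred for Gclm 134 bases before the start, for Prdx1 133 bases before it, for Srxn1 28 bases after it and at the second of the listed starts of Txnrd1 92 bases before it, each time on the minus strand. The windows of Nqo1 and Slc7a11 did not hold these letters. A second motif, TGANTCA, which MAF, BACH and AP-1 proteins also bind and which was added as a second search, occurred in 7.81% of all windows, and in those of Srxn1 and Prdx1 it occurred 2 times each. One of these matches in Prdx1 overlaps its TGACNNNGC match. The 250 bases before the start are shown for these 4 genes because their windows hold the letters TGACNNNGC. The match of Srxn1 lies after the start and so outside its printed stretch, in which the capitals are its 2 TGANTCA matches. Capitals mark the matches to either motif, and a match describes letters, not a site shown to be bound.
Gclm, chr3:122245307-122245556, plus strand: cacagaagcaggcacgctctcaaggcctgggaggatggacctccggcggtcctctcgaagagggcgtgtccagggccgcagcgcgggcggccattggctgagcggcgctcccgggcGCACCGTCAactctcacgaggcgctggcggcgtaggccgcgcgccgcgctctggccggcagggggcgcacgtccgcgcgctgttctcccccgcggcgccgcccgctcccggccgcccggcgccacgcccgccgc
Prdx1, chr4:116685349-116685598, plus strand: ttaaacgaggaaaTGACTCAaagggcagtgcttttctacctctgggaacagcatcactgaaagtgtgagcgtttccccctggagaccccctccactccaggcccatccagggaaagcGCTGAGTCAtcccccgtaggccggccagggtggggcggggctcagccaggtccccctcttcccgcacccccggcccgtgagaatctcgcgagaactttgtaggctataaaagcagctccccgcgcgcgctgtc
Srxn1, chr2:152105274-152105523, plus strand: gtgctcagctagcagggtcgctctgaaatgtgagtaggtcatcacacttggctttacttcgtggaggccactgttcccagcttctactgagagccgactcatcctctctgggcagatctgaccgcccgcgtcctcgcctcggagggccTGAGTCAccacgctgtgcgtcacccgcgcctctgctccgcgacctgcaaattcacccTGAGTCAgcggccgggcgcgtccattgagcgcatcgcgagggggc
Txnrd1, chr10:82858956-82859205, plus strand: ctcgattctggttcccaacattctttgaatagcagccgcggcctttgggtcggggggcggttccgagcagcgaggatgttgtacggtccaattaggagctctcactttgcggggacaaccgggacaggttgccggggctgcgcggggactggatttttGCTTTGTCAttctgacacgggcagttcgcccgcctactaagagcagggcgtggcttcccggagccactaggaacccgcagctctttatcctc

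Taf1 was lower in the knockout libraries at 5 of the 6 stages, by 0.47 to 0.99 on the log2(TPM + 1) scale. At day 3 it stood at 8.66, 10.3 and 9.06 TPM in knockout libraries, against 9.62, 10.9 and 11.5 TPM in control libraries, a difference of -0.17 that did not pass (adjusted p = 0.0711, limma), so Taf1 does not separate the genotypes at that stage. TPM is per gene length and per library total, keeps no depth, and allows no counting interval. Between 10289 and 11226 genes reached 1 TPM, and replicates correlated at 0.973 to 0.997 over genes. Some libraries stood apart. At day 0 control replicate 3 was the lowest of its 3 for 72.4% of all genes and for 7 of 9 members. At day 3 replicate 1 was the lowest for 67.8% of all genes in control and 64.6% in knockout cells, and for 3 and 6 of 9 members. At day 7 the knockout library numbered 1 was the lowest of its 3 for 9 of 9 members in both courses, while it was the lowest for 62.9% of all genes in the macrophage and 67.1% in the granulocyte cultures. The structural RNAs Rpph1 and Rmrp took 9.49% of its TPM in the macrophage course, against 4.14% and 4.66% in the other knockout libraries, and 7.00% in the granulocyte course, against 2.29% and 2.34%. Day 7 controls held 10.4%, 10.6% and 9.73% in the macrophage course and 10.1%, 7.92% and 8.02% in the granulocyte course. In this share knockout replicate 1 thus lay near the controls, and replicates 2 and 3 lay below them. At day 5 the control library numbered 1 held 4.93% of its TPM in the neutrophil genes S100a8 and S100a9 in macrophage cultures and 5.49% in granulocyte cultures, and the other controls held 13.9% to 14.5%. Macrophage markers, 12 genes, summed to 1861 to 2008 TPM in knockout and 1761 to 2595 TPM in control libraries at day 7 of the macrophage course, and neutrophil markers, 12 genes, to 152712 to 173483 and 121153 to 170199 TPM at day 7 of the granulocyte course. Neutrophil markers in macrophage cultures at day 7 summed to 28601 to 42702 TPM in knockout and 37191 to 74625 TPM in control libraries. Control library 3 of these cultures held 3.31% of its TPM in S100a8 and S100a9, and the other controls held 6.27% and 6.46%. At day 7 of the granulocyte course S100a8 and S100a9 held 14.5% to 16.3% of TPM in knockout and 11.1% to 15.5% in control libraries. They made up most of the neutrophil sums at day 7 of both courses. Further marker lists are given with the results of each stage. The libraries are bulk, so fewer cells of a type and less RNA per cell cannot be told apart.

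The members spanned very different levels in TPM. Prdx1, a peroxiredoxin that reduces hydrogen peroxide, was the most abundant, with library values between 175 and 3301 TPM. Slc7a11, the cystine importer of the xCT antiporter, had the lowest value, 0.12 TPM, and reached 72.1 TPM. The ratio of the highest to the lowest group mean was 290.2 for Slc7a11, 199 for Hmox1, 66.8 for Srxn1 and 15.8 for Prdx1, and 2.74 to 5.30 for the other 5 members. The highest group mean belonged to a day 7 knockout group for 8 of the 9 genes. Gsr was the exception, with its highest mean at day 3 in knockout cells. When the 12 groups were put in order of a gene's mean, most neighbours in that order overlapped: of the 11 neighbouring pairs, the libraries stayed apart in 6 for Prdx1, 5 for Srxn1, 4 for Gclm, 3 for Hmox1 and for Gsr, 2 for Slc7a11, and 1 each for Nqo1, Gclc and Txnrd1.

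**Figure D1:**
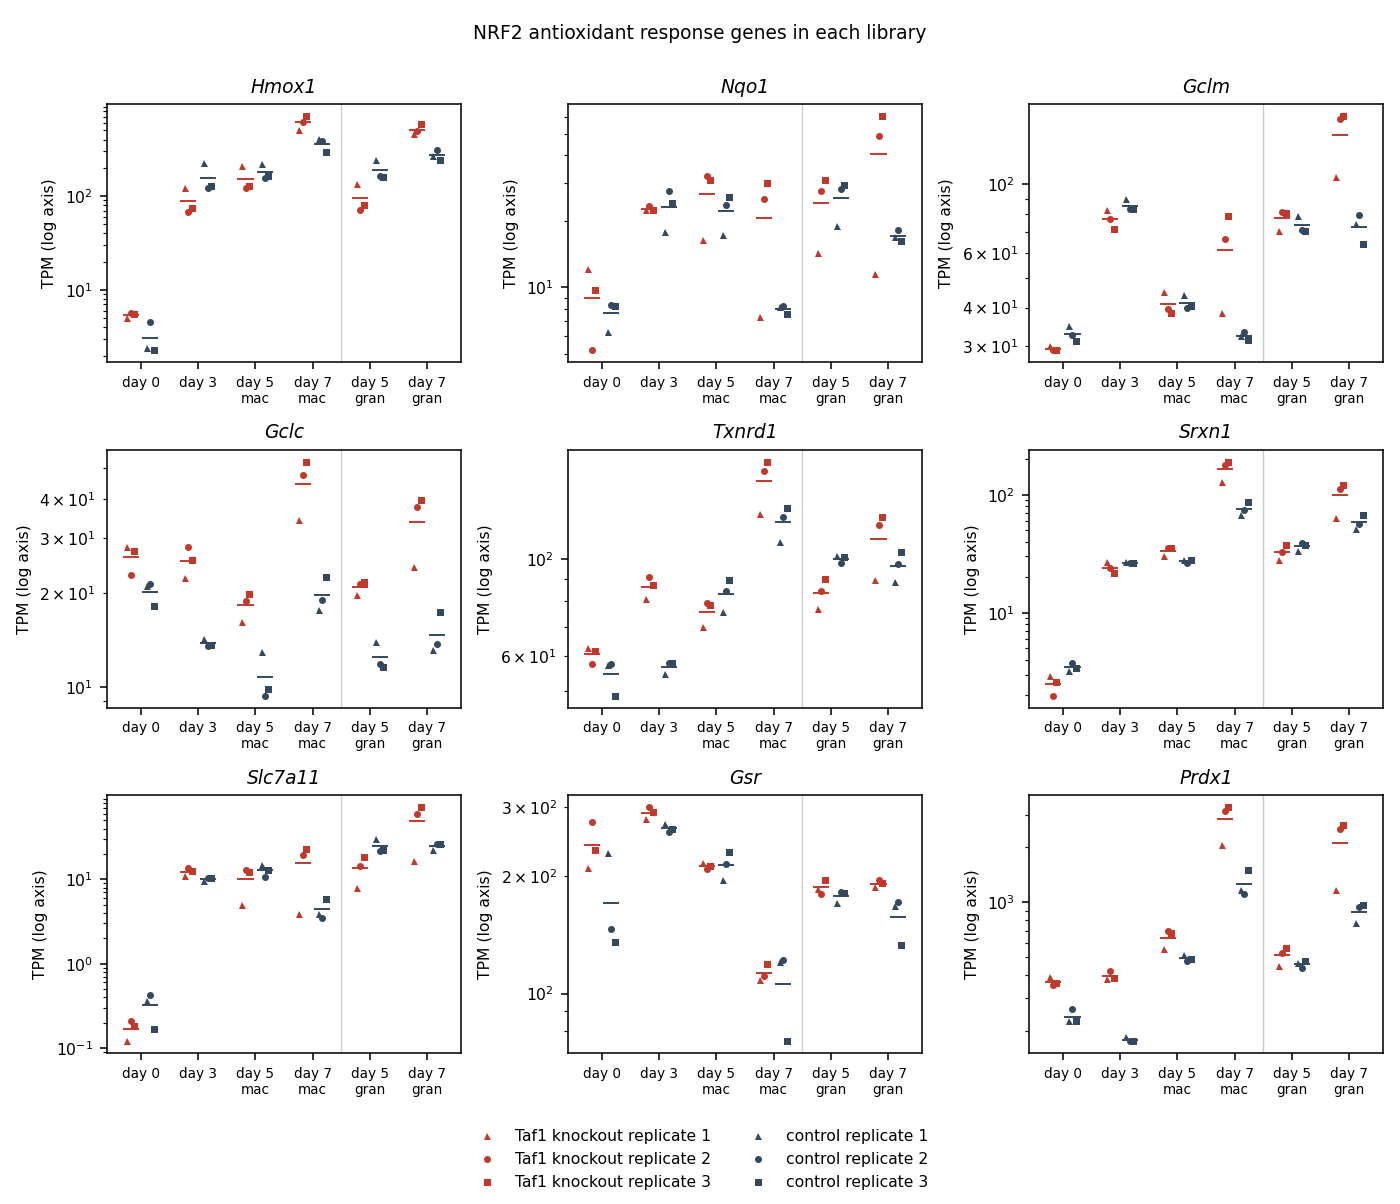
TPM on a log axis of the 9 NRF2 target genes in each of the 36 libraries, by stage, with Taf1 knockout in red left of control in dark blue, symbols for replicates 1 to 3 and a bar at each group mean. For 8 of 9 genes the highest of the 12 group means is that of knockout cells at day 7 of 1 of the courses, and the triangle of knockout replicate 1 lies lowest of its 3 at day 7 in every panel.

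At day 7 of the macrophage course the set rose in knockout cells. By limma, 8 of the 9 members were higher and 1 did not pass, where 39.9% of all 11953 genes tested were called and 27.4% were called higher. The median log2 difference was 1.07 over the members and 0.12 over all genes. Libraries of the genotypes did not overlap for 5 members, Hmox1, Gclm, Gclc, Srxn1 and Prdx1, and 51.2% of all genes had no such overlap.

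In the thioredoxin arm every member rose. Srxn1 (mm10 chr2:152105516-152111376), sulfiredoxin, which restores overoxidised peroxiredoxins, stood at 127, 179 and 191 TPM in knockout libraries, against 67.4, 74.6 and 87.0 TPM in control libraries. It was higher by 1.10 ± 0.13 (SE) log2, with an adjusted p of 2.94e-06. Prdx1 (chr4:116685544-116700822) stood at 2049.8, 3127 and 3301 TPM in knockout and 1168, 1115 and 1489.8 TPM in control libraries, a rise of 1.15 ± 0.14 with an adjusted p of 3.56e-06. For both genes the lowest knockout library lay above the highest control. Txnrd1 (chr10:82833951-82897712), the selenoenzyme that recharges thioredoxin, moved least among those that passed: 127, 158 and 167 TPM in knockout against 109, 124 and 131 TPM in control libraries, higher by 0.30 ± 0.10 (adjusted p = 0.0209). Its knockout replicate 1 lay within the control range.

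In the glutathione arm, Gclc (chr9:77754535-77794485), the catalytic subunit of glutamate-cysteine ligase, stood at 34.1, 47.5 and 52.6 TPM in knockout libraries, against 17.7, 19.0 and 22.6 TPM in control libraries. It rose by 1.12 ± 0.14 log2 (adjusted p = 6.7e-06) with no overlap. Gclm (chr3:122245557-122270732), the modifier subunit of the same enzyme, stood at 38.5, 66.6 and 79.3 TPM in knockout and 32.4, 33.3 and 31.5 TPM in control libraries, a rise of 0.84 ± 0.15 (adjusted p = 0.000274). Here too the lowest knockout library lay above the controls, though closely. Slc7a11 (chr3:49892526-50443614, minus strand) had 3.93, 19.6 and 22.9 TPM in knockout and 3.85, 3.50 and 5.84 TPM in control libraries, a difference of 1.34 ± 0.39 (adjusted p = 0.00977) in which replicates 2 and 3 were high and replicate 1 was among the controls. Gsr (chr8:33652523-33698163), glutathione reductase, was the member that did not pass, with 108, 111 and 119 TPM in knockout against 120.4, 122 and 75.5 TPM in control libraries, a difference of 0.12 ± 0.17.

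The remaining members act on haem and quinones. Hmox1 (chr8:75093621-75100589), haem oxygenase, which opens the haem ring and releases iron, stood at 502, 617 and 712 TPM in knockout libraries, against 404, 390.2 and 294 TPM in control libraries. It was higher by 0.75 ± 0.26 (adjusted p = 0.0287) with no overlap. Nqo1 (chr8:107388225-107403206, minus strand), a quinone reductase, had 7.33, 25.2 and 29.9 TPM in knockout and 8.13, 8.27 and 7.60 TPM in control libraries, a rise of 1.07 ± 0.35 (adjusted p = 0.021). Its knockout replicate 1 was below every control, and replicates 2 and 3 were above every control.

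At day 7 of the granulocyte course 5 members rose in knockout cells, where 44.1% of all 11905 genes tested were called and 32.1% were called higher. The median difference was 0.90 over the members and 0.17 over all genes, and libraries did not overlap for 5 members, Hmox1, Gclm, Gclc, Gsr and Prdx1, against 49.6% of all genes. Prdx1 stood at 1164, 2491 and 2634 TPM in knockout libraries, against 766, 938 and 963 TPM in control libraries, and was higher by 1.15 ± 0.19 (adjusted p = 8.7e-05). Gclc stood at 24.2, 37.5 and 39.7 TPM in knockout and 13.1, 13.7 and 17.4 TPM in control libraries, a rise of 1.13 ± 0.15 (adjusted p = 5.51e-06). In neither gene did the genotypes overlap, and knockout replicate 1 lay nearest the controls in each. Gclm stood at 106, 162 and 166 TPM in knockout and 74.7, 79.6 and 64.3 TPM in control libraries, a rise of 0.96 ± 0.13 (adjusted p = 6.4e-06). Hmox1 stood at 454, 491 and 580.0 TPM in knockout and 266, 307 and 242 TPM in control libraries, a rise of 0.90 ± 0.26 (adjusted p = 0.00948). These 2 genes had every knockout library above every control as well. Srxn1 stood at 63.5, 111 and 121 TPM in knockout and 50.7, 56.1 and 67.9 TPM in control libraries, higher by 0.71 ± 0.17 (adjusted p = 0.0029), with replicate 1 inside the control range. The other 4 members differed by 0.19 to 0.90 and did not pass. Of these Nqo1, at 11.6, 49.2 and 60.4 TPM in knockout and 16.9, 18.3 and 16.2 TPM in control libraries, and Slc7a11, at 16.6, 59.3 and 72.1 TPM in knockout and 22.2, 26.3 and 26.3 TPM in control libraries, were split: replicate 1 was below every control and replicates 2 and 3 were above them.

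Day 7 rests on knockout replicates 2 and 3. The median over members of a library's difference from the control mean was 0.25, 1.23 and 1.32 for knockout replicates 1, 2 and 3 of macrophage cultures, and 0.26, 1.15 and 1.18 for those of granulocyte cultures. Replicate 1 was still above the control mean for 7 of 9 members in macrophage cultures and 6 of 9 in granulocyte cultures. With the libraries numbered 1 left out of every group, 8 members were higher in macrophage and 9 in granulocyte cultures, and in macrophage cultures Slc7a11 then differed by 2.00 and Nqo1 by 1.67. This setting was added after the data were seen, and knockout replicate 1 was the lowest of its 3 for 9 of 9 members. Leaving it out raises the knockout means by construction, so these values are no separate support. With replicates 2 and 3 left out together, the knockout group is 1 library, whose difference from the controls is tested on the assumption that it varies like the other groups. On that assumption 3 members stayed past the threshold in the macrophage course, Gclc at 0.77, Srxn1 at 0.74 and Prdx1 at 0.72, and 2 in the granulocyte course, Gclm at 0.53 and Gclc at 0.69. For that single library Gclc stood at 34.1 TPM, above the 3 controls at 17.7 to 22.6 TPM, in the macrophage course, and at 24.2 TPM, above 13.1 to 17.4 TPM, in the granulocyte course. Leaving out only knockout replicate 2 or only replicate 3 gave 4 members in the macrophage course, with Hmox1 at 0.73 and 0.63, Nqo1 at 0.83 and 0.72, Txnrd1 at 0.26 and 0.22 and Slc7a11 at 1.03 and 0.93 no longer passing. Without control replicate 1 of that course Nqo1 (1.08) and Txnrd1 (0.23) did not pass, and without control replicate 3 Hmox1 (0.60) did not. After median-of-ratios scaling, which moved the median of all genes by -0.13 in the macrophage and -0.18 in the granulocyte course, 6 and 4 members were higher; Hmox1 no longer passed in either course and Txnrd1 no longer passed in the macrophage course. Megakaryocyte markers, 6 genes of which 2 rose and 1 fell in macrophage cultures and 4 rose in granulocyte cultures, summed to 1818 to 2262 TPM in knockout and 417 to 440 TPM in control libraries of the macrophage course, and to 1228 to 1675 and 297 to 498 TPM in the granulocyte course. Mast cell and basophil markers, 6 genes of which 4 rose, summed to 1885, 5148 and 5934 TPM in knockout replicates 1, 2 and 3 of the granulocyte course, against 1592 to 2102 TPM in controls. Progenitor markers, 8 genes of which 4 rose in macrophage and 6 in granulocyte cultures, summed to 54.3 to 64.4 TPM in knockout and 25.3 to 40.5 TPM in control macrophage cultures, and to 132 to 166 and 59.1 to 68.1 TPM in granulocyte cultures. Eosinophil markers, 5 genes of which 3 fell in each course, summed to 30.2 to 64.5 TPM in knockout and 65.6 to 180.1 TPM in control macrophage cultures, and to 162 to 256 and 478 to 574 TPM in granulocyte cultures. Macrophage markers in granulocyte cultures, of which 1 rose and 9 fell of 11 tested, summed to 943 to 984 TPM in knockout and 1223 to 2028 TPM in control libraries, with Vsig4 at 0 in both. No gene of the megakaryocyte, mast cell and basophil, progenitor and eosinophil lists was at 0 at day 7, and the part of these cells in the members' values was not tested.

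**Figure D2:**
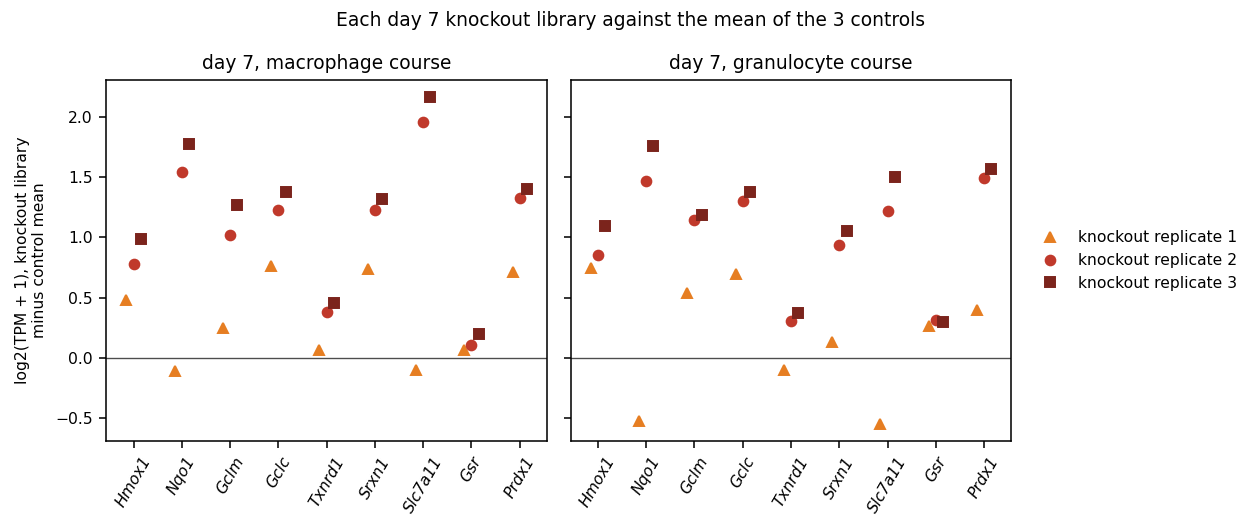
Log2(TPM + 1) of each day 7 knockout library minus the mean of the 3 controls, for the 9 genes in each course, with a line at 0. Replicate 1 (orange triangles) lies lowest for each gene, with medians over genes of 0.25 and 0.26, and replicates 2 and 3 lie close together at 1.15 to 1.32.

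Before day 7 few members passed. The median log2 difference over members was 0.16 at day 0, 0.13 at day 3, -0.0033 at day 5 of the macrophage course and -0.11 at day 5 of the granulocyte course, against 0.06, -0.01, -0.23 and -0.09 over all genes. At day 0, 2 of 9 rose in knockout cells, where 23.3% of all genes were called and 13.1% were called higher. Prdx1 stood at 390.2, 352 and 365 TPM in knockout libraries, against 226, 261 and 225 TPM in control libraries, and was higher by 0.64 ± 0.14 (adjusted p = 0.00237) with no overlap. Gsr stood at 209.7, 276 and 234 TPM in knockout and 229, 147 and 136 TPM in control libraries, higher by 0.52 ± 0.17 (adjusted p = 0.0273), a call on overlapping libraries that was lost without replicate 2 or 3 of either genotype (0.38 to 0.53) and after median-of-ratios scaling (0.44). The other 7 differed by -0.36 to 0.70 and did not pass. Libraries did not overlap for 5 members, against 39.8% of all genes. Neutrophil markers summed to 19215 to 38287 TPM in knockout and 7220 to 14340 TPM in control libraries at day 0. In the same order macrophage markers summed to 64.73 to 73.86 and 53.63 to 60.05 TPM. Erythroid markers summed to 44.95 to 74.82 and 88.15 to 140.15 TPM. Dendritic cell markers summed to 33.14 to 58.05 and 67.63 to 163.5 TPM. Such sums can be set by a few genes, and the part of these cells in the members' values was not tested.

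At day 3, 3 members rose and 1 fell in knockout cells, where 53.2% of all genes were called, 26.5% higher and 26.7% lower. The genes that rose were Prdx1, Gclc and Txnrd1. Prdx1 stood at 381, 422 and 388 TPM in knockout libraries, against 185, 175 and 175 TPM in control libraries, higher by 1.15 ± 0.14 (adjusted p = 1.29e-06). Gclc stood at 22.3, 28.1 and 25.4 TPM in knockout and 14.3, 13.6 and 13.7 TPM in control libraries, higher by 0.82 ± 0.14 (adjusted p = 8.24e-05). Txnrd1 stood at 81.1, 90.8 and 87.1 TPM in knockout and 54.5, 57.7 and 57.9 TPM in control libraries, higher by 0.60 ± 0.10 (adjusted p = 4.88e-05). In all 3 the genotypes were well apart. Hmox1 went the other way, at 122, 68.4 and 74.3 TPM in knockout and 223, 121 and 127 TPM in control libraries, with a log2 difference of -0.81 ± 0.26 (adjusted p = 0.0134). Replicate 1 was the highest of its group in both genotypes for Hmox1, so the ranges met, and the difference did not pass without control replicate 1 (-0.53) or knockout replicate 2 (-0.65) or 3 (-0.71). The other 5 members differed by -0.14 to 0.26. Libraries did not overlap for 6 members, Gclm, Gclc, Txnrd1, Slc7a11, Gsr and Prdx1, against 65.4% of all genes. Macrophage markers, of which 8 of 11 tested fell, summed to 178 to 284 TPM in knockout and 668 to 899 TPM in control libraries. Vsig4 was at 0 in both. In the same order neutrophil markers summed to 130679 to 145408 and 76935 to 92814 TPM. S100a8 and S100a9 made up most of these sums, at 12.1% to 13.5% and 6.58% to 7.96% of TPM. Megakaryocyte markers summed to 279 to 614 and 1369 to 2375 TPM. Eosinophil markers summed to 547 to 619 and 1914 to 2969 TPM. Erythroid markers summed to 20.6 to 23.4 and 65.8 to 102 TPM. Mast cell and basophil markers summed to 1079 to 1244 and 1337 to 1821 TPM. Dendritic cell markers summed to 145 to 169 and 270 to 440 TPM. The part of these cells in the values of Hmox1 and the other members was not tested.

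At day 5 of the macrophage course 2 members rose, where 43% of all genes were called and 5.11% were called higher. Gclc stood at 16.2, 18.8 and 19.8 TPM in knockout libraries, against 13.0, 9.37 and 9.82 TPM in control libraries, higher by 0.73 ± 0.14 (adjusted p = 0.000513). Prdx1 stood at 555, 694 and 676 TPM in knockout and 516, 479.9 and 490.2 TPM in control libraries, higher by 0.37 ± 0.14 (adjusted p = 0.0398), a call lost without any 1 of the control replicates or without knockout replicate 2 or 3 (0.31 to 0.40). Libraries did not overlap for 3 members, Gclc, Srxn1 and Prdx1, against 54% of all genes. The other 7 differed by -0.41 to 0.28. Without control replicate 1, which stood apart, Gclc differed by 0.86 and still passed, and Prdx1 differed by 0.40 and did not. After median-of-ratios scaling Gclc differed by 0.97 and Prdx1 by 0.62, and both passed. With every gene tested, low ones too, Prdx1 did not pass. Macrophage markers, of which 9 of 11 tested fell, summed to 399 to 465 TPM in knockout and 824 to 1054 TPM in control libraries, with Vsig4 at 0 in controls. Neutrophil markers, of which 3 rose and 4 fell of 12, summed to 189654 to 249046 TPM in knockout and 58183 to 164729 TPM in control libraries, and eosinophil markers, of which 4 of 5 fell, to 559 to 612 and 910.4 to 1759 TPM. The part of these cells in the members' values was not tested.

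At day 5 of the granulocyte course Gclc rose and Hmox1 fell, where 32% of all genes were called, 9.2% higher and 22.8% lower. Gclc stood at 19.7, 21.3 and 21.6 TPM in knockout libraries, against 14.0, 11.8 and 11.6 TPM in control libraries, higher by 0.70 ± 0.15 (adjusted p = 0.000911). Hmox1 stood at 134, 70.3 and 80.0 TPM in knockout and 242, 165 and 160.2 TPM in control libraries, with a log2 difference of -1.02 ± 0.26 (adjusted p = 0.00558). Both stayed past the threshold without control replicate 1, Gclc at 0.78 and Hmox1 at -0.83. Libraries did not overlap for 4 members, Hmox1, Gclc, Txnrd1 and Slc7a11, against 46.2% of all genes. The other 7 differed by -0.87 to 0.15, the lowest being Slc7a11, whose 7.92, 14.5 and 18.6 TPM in knockout libraries lay below the 29.9, 21.6 and 22.4 TPM of controls without passing. Macrophage markers, of which 11 of 11 tested fell, summed to 238 to 397 TPM in knockout and 734 to 1024 TPM in control libraries, with Vsig4 at 0 in both. Neutrophil markers, of which 1 rose and 3 fell of 12, summed to 187343 to 230979 TPM in knockout and 63132 to 161751 TPM in control libraries, progenitor markers, of which 5 of 8 rose, to 174 to 214 and 100.4 to 115 TPM, and eosinophil markers, of which 4 of 5 fell, to 735 to 778 and 821 to 1869.8 TPM. The part of these cells in the members' values was not tested.

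Across the 6 stages Gclc passed at 5 and Prdx1 at 5, always higher in knockout cells. At the stage where each missed, Gclc differed by 0.35 (day 0) and Prdx1 by 0.15 (day 5, granulocyte course). Hmox1 passed at 4, lower at 2 and higher at 2. Gclm and Srxn1 passed only at day 7, in both courses, and Txnrd1 passed at day 3 and at day 7 of the macrophage course. The stage comparisons share no libraries but are not independent. The courses were divided from common cultures, and the stages of a course share the spread of a fit. The Prdx1 call at day 5 of the macrophage course was lost with several single libraries left out. How many of all genes passed at 5 stages was not counted.

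**Figure D3:**
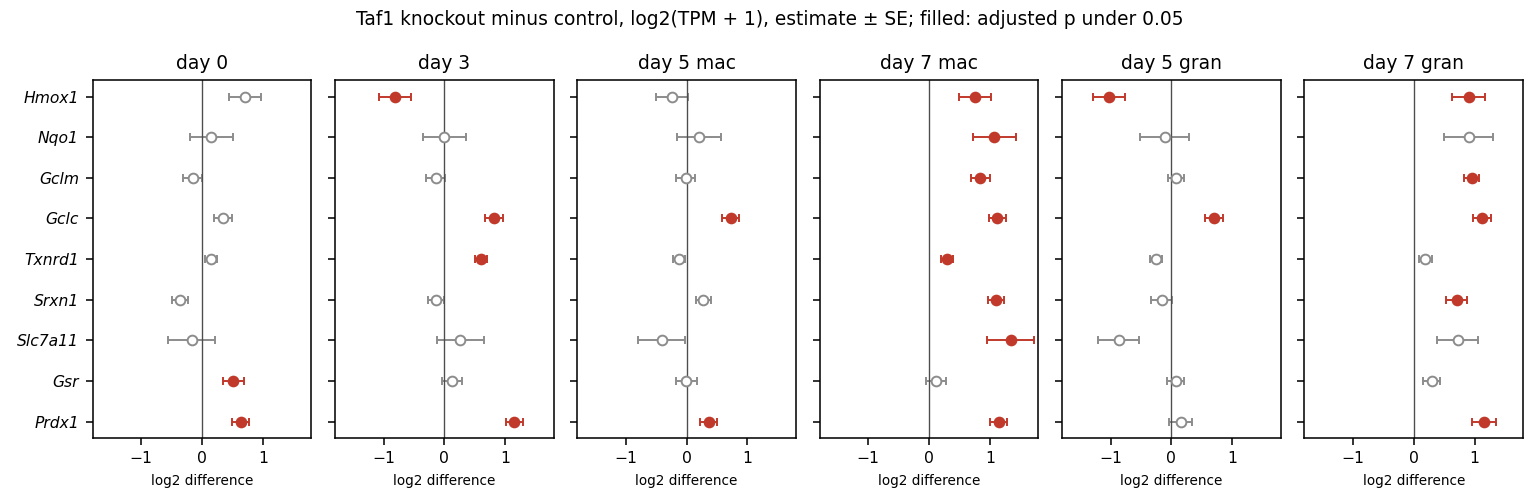
Log2 difference between Taf1 knockout and control for the 9 genes at each stage, from log2(TPM + 1), with bars of 1 SE and filled points where the limma adjusted p was under 0.05. Gclc and Prdx1 lie to the right of 0 at each stage, and Hmox1 lies at -0.81 at day 3 and at 0.75 and 0.90 at day 7.

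Whether the genotype difference changed over time was tested as an interaction. Between day 0 and day 3 the change in knockout minus that in control cells was -1.52 ± 0.37 for Hmox1 (adjusted p = 0.00435) and 0.44 ± 0.14 for Txnrd1 (adjusted p = 0.0212), where 17.3% of all genes were called negative and 15% positive. Between day 3 and day 7 of the macrophage course 3 members gained in knockout relative to control cells: Hmox1 by 1.56 ± 0.37, Srxn1 by 1.24 ± 0.19 and Gclm by 0.99 ± 0.22, with adjusted p of 0.00307, 5.18e-05 and 0.00176, where 21.8% of all genes were called positive. In the granulocyte course the same 3 genes passed, Hmox1 by 1.71 ± 0.37, Gclm by 1.10 ± 0.18 and Srxn1 by 0.85 ± 0.25, and Txnrd1 passed at -0.41 ± 0.15, with adjusted p of 0.00164, 9.88e-05, 0.0121 and 0.0388 in that order, where 22.3% of all genes were called positive and 11.4% negative. The Txnrd1 call from day 0 to day 3 was lost without replicate 2 of day 0 in either genotype or of day 3 in knockout cells (0.40 to 0.41), and that from day 3 to day 7 of the granulocyte course without 8 of the 12 libraries taken singly (-0.42 to -0.26). The courses share their day 3 libraries. Prdx1, whose difference was 1.15 at day 3 and 1.15 at day 7 of each course, had interactions of 0.00 and 0.01. With day 7 knockout replicates 2 and 3 left out, which leaves 1 library in that group and takes the spread from the others, the interaction was 0.88 in macrophage cultures and 0.28 in granulocyte cultures for Srxn1, 1.29 and 1.56 for Hmox1, and 0.39 and 0.68 for Gclm.

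Several members changed more with time in culture than between genotypes. From day 0 to day 3, 6 members rose in knockout cells, where 22.8% of all genes were called higher: Hmox1 by 3.75, Slc7a11 by 3.51, Srxn1 by 2.86, Gclm by 1.36, Nqo1 by 1.32 and Txnrd1 by 0.50, with SE of 0.10 to 0.39 and adjusted p of at most 0.0035. In controls, where 33.3% of all genes were called higher and 39.6% lower, 6 rose, namely Hmox1 by 5.26, Slc7a11 by 3.08, Srxn1 by 2.63, Nqo1 by 1.48, Gclm by 1.35 and Gsr by 0.67, and Gclc and Prdx1 fell by 0.51 and 0.41, with adjusted p of at most 0.0127. Prdx1 did not pass without day 0 replicate 2 (-0.34). The median over members was 1.32 in knockout and 1.35 in control cells, against -0.12 and -0.07 over all genes. Hmox1 averaged 5.44 ± 0.403 TPM at day 0, 88.3 ± 29.5 at day 3, 154 ± 49.4 at day 5 and 610.4 ± 105 at day 7 in knockout cells of the macrophage course (SD, n = 3 each). In control cells it averaged 3.07 ± 1.30, 157 ± 57.2, 179 ± 35.8 and 363 ± 59.7 TPM at the same days. Control means were thus above knockout means at days 3 and 5 and below them at days 0 and 7.

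From day 3 to day 5 of the macrophage course, 6 members changed in knockout cells, where 8.68% of all genes were called higher and 47% lower. Hmox1, Prdx1 and Srxn1 rose by 0.80, 0.69 and 0.46, and Gclm, Gclc and Gsr fell by 0.90, 0.45 and 0.45, with adjusted p of at most 0.0262. Of these the calls of Hmox1 (0.55 to 0.70), Gclc (-0.37) and Gsr (-0.45 to -0.43) were lost without 3, 2 and 4 of the 6 libraries taken singly. The median over all genes was -0.27, and after median-of-ratios scaling Gclc differed by -0.13 and Gsr by -0.12, and neither passed. In controls, where 25.6% were called higher and 24.6% lower, Prdx1 and Txnrd1 rose by 1.47 and 0.54, and Gclm and Gclc fell by 1.03 and 0.35, with adjusted p of at most 0.0478, and the call of Gclc was lost without 5 of the 6 libraries taken singly (-0.36 to -0.27). In the granulocyte course Gsr alone passed in knockout cells, falling by 0.63 where 11.2% of all genes were called lower. In controls of that course, where 23.4% were called higher and 20.8% lower, Prdx1, Slc7a11, Txnrd1 and Srxn1 rose by 1.36, 1.20, 0.81 and 0.44, and Gsr fell by 0.57, with adjusted p of at most 0.0452, and the call of Srxn1 was lost without 5 of the 6 libraries taken singly (0.39 to 0.46). Gclm parted by course in these values, falling in the macrophage course in both genotypes and differing by 0.01 in knockout and -0.21 in control cells of the granulocyte course.

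From day 5 to day 7 of the macrophage course 6 members rose and Gsr fell by 0.91 in knockout cells, where 58.1% of all genes were called higher and 8.56% lower. Srxn1 rose by 2.25, Prdx1 by 2.11, Hmox1 by 2.01, Gclc by 1.23, Txnrd1 by 0.97 and Gclm by 0.52, with adjusted p of at most 0.00609, where the median over all genes was 0.37. Gclm did not pass without day 7 replicate 3 (0.31), and after median-of-ratios scaling its change was 0.086 and did not pass. In controls, where 22.9% were called higher and 16.2% lower, 5 rose, namely Srxn1 by 1.43, Prdx1 by 1.33, Hmox1 by 1.02, Gclc by 0.83 and Txnrd1 by 0.54, and Slc7a11, Nqo1 and Gsr fell by 1.36, 1.35 and 1.03, with adjusted p of at most 0.00814. In the granulocyte course 7 rose in knockout cells, where 27.9% of all genes were called higher, namely Hmox1 by 2.46, Prdx1 by 1.94, Slc7a11 by 1.61, Srxn1 by 1.51, Gclm by 0.86, Gclc by 0.64 and Txnrd1 by 0.39, with adjusted p of at most 0.00473. In controls Prdx1 and Srxn1 passed there, rising by 0.94 and 0.65, with adjusted p of at most 0.0063, where 10% of all genes were called higher. In knockout replicate 1 alone, whose change can be tested only with the spread of the other groups, the day 5 to day 7 change of Gclm in macrophage cultures was -0.08, and those of Slc7a11, Gclc and Txnrd1 in granulocyte cultures were 0.34, 0.21 and 0.098, none of which passed. Slc7a11 and Nqo1 thus fell over the last days in control macrophage cultures, to 4.40 ± 1.26 and 8.0 ± 0.353 TPM at day 7, and averaged 15.5 ± 10.1 and 20.8 ± 11.9 TPM in knockout cells, with a spread set by replicate 1.

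The courses differed in a few members. At day 7 of knockout cells, with 35.3% of all genes called higher and 14.9% lower, Srxn1 and Txnrd1 were higher in the macrophage than in the granulocyte course by 0.78 ± 0.19 and 0.44 ± 0.12, and Slc7a11, Gclm and Gsr were lower (-1.67 ± 0.52, -1.25 ± 0.19 and -0.76 ± 0.13), with adjusted p of at most 0.0117. Slc7a11 did not pass without macrophage replicate 1 (-0.94) or granulocyte replicate 2 or 3 (-1.42 and -1.28). Gclm stood at 38.5, 66.6 and 79.3 TPM in the macrophage course and 106, 162 and 166 TPM in the granulocyte course, with no overlap. In controls, with 34% called higher and 9.81% lower, Txnrd1 was higher by 0.33 ± 0.12 and Slc7a11, Gclm and Gsr were lower (-2.29 ± 0.52, -1.14 ± 0.19 and -0.59 ± 0.13), with adjusted p of at most 0.0326, and Txnrd1 did not pass without 4 of the 6 libraries taken singly (0.27 to 0.34) or after median-of-ratios scaling (0.14). Control Slc7a11 stood at 3.85, 3.50 and 5.84 TPM in the macrophage course and 22.2, 26.3 and 26.3 TPM in the granulocyte course, and again did not overlap. At day 5, Gclm was already lower in the macrophage course in knockout cells (-0.91 ± 0.19, adjusted p = 0.00232, 14.9% of all genes called lower) and in controls (-0.82 ± 0.19, adjusted p = 0.0177, 2.05% called lower), and Hmox1 was higher in knockout cells (0.70 ± 0.24, adjusted p = 0.0467, 3.21% called higher). Without 4 of the 6 libraries taken singly, Gclm in controls (-0.84 to -0.77) and Hmox1 (0.46 to 0.81) did not pass. The courses were divided from common cultures, and with the replicate number as a block 4 members were higher in the macrophage course at day 7 in knockout cells and 4 in controls, and 3 were lower at day 5 in controls. A difference in the knockout effect between the courses was not detected by limma for any member, in a fit without the replicate block. At day 5, 0 of 9 passed and 1 had an unadjusted p under 0.05, with 0.251% of all genes called, and at day 7, 0 of 9 passed and 0 had such a p, with 4.28% called. With the libraries numbered 1 left out of every group, 1 member passed at day 5.

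Of 15 regulators of NRF2, 14 passed the filter on low values, and Bach2 did not. Nfe2l2, the gene of NRF2 itself, did not pass at any of the 6 stages by limma, 0 of 6 having an unadjusted p under 0.05, with differences of -0.27 to 0.19. At day 7 of the macrophage course it stood at 113, 132 and 134 TPM in knockout and 108, 108 and 136 TPM in control libraries, and at day 7 of the granulocyte course at 95.4, 128 and 128 TPM in knockout and 104, 111 and 151 TPM in control libraries. The genotypes overlapped in each. The small MAF partners did move. Mafk rose at day 3 by 0.43 ± 0.12, at day 7 of the macrophage course by 0.51 ± 0.12 and at day 7 of the granulocyte course by 1.01 ± 0.16 (adjusted p = 0.00629, 0.00289 and 5.67e-05). At the last of these it stood at 25.1, 37.9 and 44.2 TPM in knockout and 14.8, 15.6 and 20.4 TPM in control libraries, which did not overlap. Mafg rose by 0.59 ± 0.12 at day 7 of the granulocyte course (adjusted p = 0.000455), and Maff fell at day 3 (-1.07 ± 0.28, adjusted p = 0.00303).

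Among the genes of NRF2 turnover, Keap1 was lower at day 5 of the macrophage course (-0.23 ± 0.07, adjusted p = 0.0184) and at its day 7 (-0.20 ± 0.07, adjusted p = 0.0413). The median over all genes at day 5 of the macrophage course was -0.23. There Keap1 stood at 0.018 after median-of-ratios scaling and did not pass without control replicate 1 (-0.20). Keap1 stood at 25.8, 25.6 and 25.6 TPM in knockout and 29.5, 31.1 and 28.0 TPM in control libraries at that day 7. Cul3, the scaffold of the ligase, was higher at day 0 by 0.35 ± 0.11 and at day 3 by 0.30 ± 0.11 and lower at day 5 of the macrophage course (-0.28 ± 0.11), with adjusted p of 0.0205, 0.0215 and 0.0366. Rbx1, its ring subunit, rose at day 3 by 0.54 ± 0.09 (adjusted p = 8.66e-05). Fbxw11, Btrc and Syvn1, ligases that act on NRF2 apart from KEAP1, were lower at day 5 of the macrophage course (-0.28, -0.24 and -0.51, adjusted p of at most 0.0437), and Btrc rose by 0.27 at day 7 of the granulocyte course (adjusted p = 0.0323). After median-of-ratios scaling the day 5 values of these 3 genes and of Cul3 did not pass, with Fbxw11 at -0.029, Btrc at -0.098, Syvn1 at -0.29 and Cul3 at -0.030, nor did Btrc at day 7 (0.13). Without control replicate 1 Btrc at day 5 was -0.16 and did not pass either. Sqstm1, the autophagy receptor p62, which binds KEAP1 and is an NRF2 target as well, rose at day 7 of the macrophage course by 0.92 ± 0.30 (adjusted p = 0.0207), at 492, 709.9 and 710.5 TPM in knockout and 294, 316 and 397 TPM in control libraries with no overlap. Bach1, the repressor, fell at day 3 (-0.22 ± 0.09, adjusted p = 0.0456). Nfe2l1, a relative of NRF2, fell at day 3 and at day 5 of both courses (-0.79, -0.77 and -0.82, adjusted p of at most 0.0203), where control replicate 1 of day 5 was far above the other controls at 85.8 TPM in macrophage and 104 TPM in granulocyte cultures. Without it Nfe2l1 differed by -0.35 and passed in macrophage cultures, and by -0.26 and did not pass in granulocyte cultures. Nfe2, the erythroid and megakaryocytic relative, rose at day 7 of the granulocyte course by 0.63 ± 0.10 (adjusted p = 6.04e-05). In all, the regulators passed as 1 higher at day 0, 3 higher and 3 lower at day 3, 6 lower at day 5 and 2 higher and 1 lower at day 7 of the macrophage course, and 1 lower at day 5 and 4 higher at day 7 of the granulocyte course, of 14 tested each time. Over all genes 13.1% were called higher and 10.2% lower at day 0, 26.5% and 26.7% at day 3, 5.11% and 37.9% at day 5 and 27.4% and 12.5% at day 7 of the macrophage course, and 9.2% and 22.8% at day 5 and 32.1% and 12% at day 7 of the granulocyte course.

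**Figure D4:**
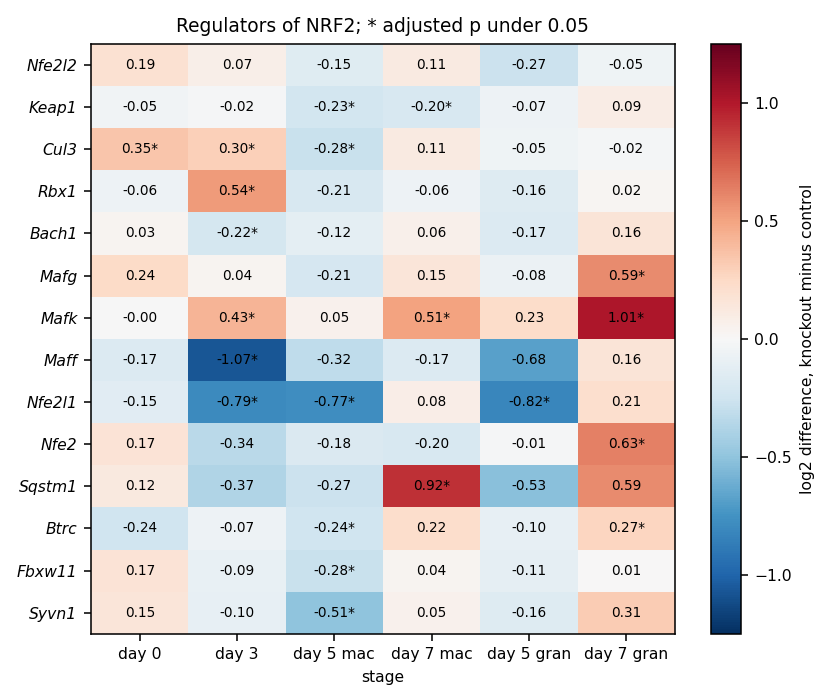
Log2 difference between Taf1 knockout and control for 14 regulators of NRF2 at each stage, as colour and number, with an asterisk where the limma adjusted p was under 0.05. Nfe2l2 holds no asterisk and values from -0.27 to 0.19, and Mafk reaches 1.01 at day 7 of the granulocyte course.

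Other genes of the pathway were called in both directions at day 7. Of 23 further NRF2 targets tested, 8 rose and 2 fell in knockout cells of the macrophage course, and 7 higher and 3 lower were called in granulocyte cultures, with medians of 0.21 and 0.06 against 0.12 and 0.17 over all genes. Over all genes 27.4% were called higher and 12.5% lower in macrophage cultures, and 32.1% and 12% in granulocyte cultures. Cbr1, a carbonyl reductase, rose by 0.75 ± 0.10 and 0.71 ± 0.13 (adjusted p = 1.03e-05 and 0.000195). Ftl1, the light chain of ferritin, rose by 1.09 ± 0.17 and 0.98 ± 0.16 (adjusted p = 4.75e-05 and 8.24e-05), and stood at 57196, 68200.1 and 68759 TPM in knockout and 26001, 27986 and 37957 TPM in control libraries of the macrophage course. Osgin1 rose by 0.85 ± 0.16 in the macrophage course (adjusted p = 0.000271) and Cbr3, another carbonyl reductase, by 0.99 ± 0.17 in the granulocyte course (adjusted p = 0.000153). Before day 7 the same list was split, with 3 higher and 3 lower at day 0, 6 and 8 at day 3, 2 and 8 at day 5 of the macrophage course and 2 and 8 at day 5 of the granulocyte course, where 23.3%, 53.2%, 43% and 32% of all genes were called in that order.

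Of 26 enzymes of glutathione, thioredoxin and peroxide metabolism, 10 were higher and 4 lower at day 7 in macrophage cultures and 10 were higher and 5 lower in granulocyte cultures, with medians of 0.15 and -0.01 against 0.12 and 0.17 over all genes. The share of all genes called was 39.9% in macrophage cultures, 27.4% higher, and 44.1% in granulocyte cultures, 32.1% higher. Gpx3, the secreted glutathione peroxidase, fell in both (-2.07 ± 0.16 and -2.61 ± 0.19, adjusted p = 8.48e-09 and 2.67e-09). It stood at 4.38, 3.63 and 2.92 TPM in knockout and 18.3, 19.1 and 17.7 TPM in control libraries of the macrophage course. Catalase, Cat, and the mitochondrial glutaredoxin Glrx5 rose in the macrophage course by 0.89 ± 0.11 and 0.67 ± 0.10 (adjusted p = 7.1e-06 and 2.23e-05). In the granulocyte course Gpx4, which reduces lipid peroxides, rose by 0.87 ± 0.12 (adjusted p = 1.85e-05), and Ggt1 fell (-1.82 ± 0.27, adjusted p = 2.79e-05).

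Of the 11 genes of haem and iron handling tested, 6 rose at day 7 in macrophage cultures, and 3 were higher and 2 lower in granulocyte cultures, where 44.1% of all genes were called, against 27.4% of all genes called higher in macrophage cultures. Alas1, the rate-limiting enzyme of haem synthesis outside red cells, rose in the macrophage course by 1.02 ± 0.19, Slc40a1, the iron exporter ferroportin, by 1.09 ± 0.23, and Fech, which inserts iron into haem, by 0.66 ± 0.10 (adjusted p = 0.000283, 0.00101 and 3.04e-05). The NADPH oxidase, a source of oxidants in phagocytes, had 7 genes tested, of which Cybb, its catalytic subunit, fell in both courses (-1.23 ± 0.32 and -1.71 ± 0.27, adjusted p = 0.00484 and 5.35e-05) and Ncf1 fell in the granulocyte course (-0.42 ± 0.14, adjusted p = 0.023). Over all genes 12.5% were called lower in macrophage and 12% in granulocyte cultures. Of 15 targets of ATF4, the amino-acid stress factor that also drives Slc7a11, 7 fell at day 7 of the macrophage course, where 12.5% of all genes were called lower, among them Phgdh, Atf4 itself and Psat1 (-1.10 ± 0.19, -0.99 ± 0.19 and -0.97 ± 0.19, adjusted p = 0.000138, 0.000452 and 0.000618). In the granulocyte course 2 rose, Slc7a5 and Ddit3, and 1 fell, Asns (1.10 ± 0.28, 1.42 ± 0.57 and -0.86 ± 0.34, adjusted p = 0.00317, 0.0476 and 0.0432). In that course 32.1% of all genes were called higher and 12% lower. Ddit3, the stress factor CHOP, stood at 27.6, 54.6 and 71.8 TPM in knockout and 13.2, 14.7 and 26.0 TPM in control libraries there, with replicate 1 again nearest the controls.

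Members were not alike in their course over the 36 libraries, which share the same 12 groups and the fixed TPM total. Pearson's r of log2(TPM + 1) was 0.957 between Hmox1 and Srxn1, 0.899 between Txnrd1 and Prdx1, 0.814 between Gclm and Slc7a11 and 0.810 between Nqo1 and Slc7a11. Gclc and Gclm, the subunits of one enzyme, had an r of 0.168. Gsr ran against Prdx1 (-0.629) and Txnrd1 (-0.605). Among 11817 other genes, the most alike were Atf3, Tlr8 and Dse for Hmox1 (0.983, 0.983 and 0.981), Rnf128, Atf3 and Slc37a3 for Srxn1 (0.977, 0.970 and 0.970), Tmem19, Mien1 and Efhd2 for Prdx1 (0.956, 0.950 and 0.949) and Bicd2, Pitpna and A230046K03Rik for Txnrd1 (0.949, 0.948 and 0.939). For Gclm they were Rufy4, Ggt5 and Src (0.925, 0.911 and 0.907), for Gclc Tmem175, Tor1b and Spg7 (0.941, 0.929 and 0.929), for Slc7a11 Dmxl2, Grina and Csf2rb (0.966, 0.937 and 0.932), for Gsr Ppp2cb, Rab44 and Chd7 (0.872, 0.870 and 0.868) and for Nqo1 Spint1, Ptpre and Tnfsf14 (0.876, 0.857 and 0.834). Atf3 was shared by Hmox1 and Srxn1.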

How the data were processed

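The authors deposited TPM per gene in 1 table for each course, and the 12 day 0 and day 3 columns were the same in both. Processing tools named in the submitters' processing notes were RSEM and DESeq2 1.38.3, with mm10 as the build. Coordinates came from GENCODE M21 on that build. TPM has a fixed total per library, so genes that take more lower the rest.

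Genes reaching 1 TPM in 3 or more libraries were tested on log2(TPM + 1), a scale that understates the folds of low genes, with limma 3.58.1 in R 4.3.3, a trended variance and 1 coefficient per group. All 9 members passed this filter. The fits took 24 libraries each, of a course or of days 5 and 7 of both courses (11953, 11905 and 11553 genes), and gave 25 comparisons, with days 0 and 3 taken from the macrophage fit. Adjustment was by Benjamini-Hochberg over all genes of a fit with a threshold of 0.05, and the script was tested on simulated data. The text names all members, regulators that passed, up to 3 passing genes of at least 5 TPM per other list and comparison by smallest p, Taf1, and the 3 genes most alike each member. The members and lists were chosen with earlier results of these data known.

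The protocol divides the courses from common cultures, so equal replicate numbers were taken to pair their samples. Correlations of deviations from group means were at least 0.237 between equal numbers. Other numbers reached 0.624 in day 5 controls, 0.435 in day 7 controls and 0.351 in day 7 knockout cells. The lowest of equal numbers there were 0.463, 0.237 and 0.274, and in day 5 knockout cells 0.308 against 0.291. The pairing thus rests on the protocol. From the data alone, every pair exceeded 0.1 between knockout and control at day 5 of the macrophage course (lowest 0.183) and in the knockout steps after day 3 (lowest 0.159), and not elsewhere. Settings tried were pseudocounts of 0.1 and 5 TPM, testing every gene, a 5 TPM filter, median-of-ratios scaling, removal of 85 short structural RNA and histone genes, the compared groups alone, a replicate block and each library left out. Leaving out the libraries numbered 1, or day 7 knockout replicates 2 and 3, was added after the data were seen.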

Additional observations from a re-analysis of the deposited data

Results flagged for a closer look

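The difference between knockout and control changed between days of a course by more than the spread, by the interaction of genotype and day in limma, for 4 of the 9 genes. From day 0 to day 3 the log2 difference changed by -1.52 for Hmox1 and by 0.44 for Txnrd1. From day 3 to day 7 of the macrophage course it changed by 1.56 for Hmox1, 0.99 for Gclm and 1.24 for Srxn1. From day 3 to day 7 of the granulocyte course it changed by 1.71 for Hmox1, 1.10 for Gclm, -0.41 for Txnrd1 and 0.85 for Srxn1. The day 3 libraries enter all of these values. From day 0 to day 3, 17.3% of all genes were called negative and 15% positive. From day 3 to day 7, 21.8% were called positive in the macrophage course, and 22.3% positive and 11.4% negative in the granulocyte course. Both Txnrd1 calls were lost with some of the libraries left out singly. Leaving out day 7 knockout replicates 2 and 3 together keeps 1 library in that group, so only sizes are given. Hmox1, Gclm and Srxn1 then changed from day 3 to day 7 by less, at 1.29, 0.39 and 0.88 for macrophage cultures. For granulocyte cultures these genes stood at 1.56, 0.68 and 0.28, and Txnrd1 was further from 0 at -0.70.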

How the results depend on the processing

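Of 98 values of members that passed over the 25 comparisons, the number that kept direction and call was 97 and 96 with pseudocounts of 0.1 and 5 TPM, 88 with every gene tested, 98 with a 5 TPM filter, 90 after median-of-ratios scaling, 95 without structural RNA and histone genes, 85 with the compared groups alone and 98 without libraries numbered 1. It was 572 of 642 with 1 library left out and 22 of 39 with day 7 knockout replicates 2 and 3 left out. Leaving out the libraries numbered 1 takes away the lowest day 7 knockout library of every member, so it is no separate support for the day 7 rises. No passing member value changed sign under either scaling. The causes of the changes below were not tested, and depth is unknown.

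Counts of members called moved as follows, with the count as reported in brackets. With day 7 knockout replicates 2 and 3 left out, knockout against control gave 3 higher in macrophage [8] and 2 in granulocyte cultures [5] at day 7; day 7 against day 5 in knockout cells gave 3 lower in macrophage [1] and 4 higher in granulocyte cultures [7]; and the day 3 to 7 interaction gave 1 positive [3] and 1 negative [0] in macrophage and 2 negative in granulocyte cultures [1]. In this setting Nqo1 and Slc7a11 at day 7 of the macrophage course stood at -0.11 and -0.11, and Gclm from day 5 to 7 in knockout cells at -0.082. Without libraries numbered 1, knockout against control gave 4 higher [2] and 1 lower [0] at day 0, 2 higher [1] and 2 lower [1] at day 5 and 9 higher [5] at day 7 of the granulocyte course. The same setting gave 2 higher from day 3 to 5 in knockout granulocyte cultures [0], 4 higher [2] and 1 lower [0] from day 5 to 7 in control granulocyte cultures, 3 positive [1] and 2 negative [1] in the day 0 to 3 interaction and 5 positive in the day 3 to 7 interaction of each course [3]. Between courses it gave 2 higher at day 5 in knockout cells [1], 3 lower at day 5 in controls [1], 1 difference in the knockout effect at day 5 [0], and 4 higher at day 7 in knockout cells [2] and in controls [1].

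After median-of-ratios scaling, day 0 gave 1 higher [2] and 1 lower [0], day 5 of the granulocyte course 2 lower [1], day 3 to 5 1 lower in knockout macrophage [3] and 2 higher in knockout granulocyte cultures [0], day 5 to 7 2 lower in knockout macrophage [1] and 4 higher in control granulocyte cultures [2], the day 0 to 3 interaction 3 positive [1], the day 3 to 7 interaction of the macrophage course 1 negative [0], and the courses 0 higher at day 7 in controls [1]. Keap1 at day 5 of the macrophage course stood at 0.018. Without structural RNA and histone genes, day 0 gave 4 higher [2] and 1 lower [0], day 5 of the granulocyte course 3 lower [1], day 3 to 5 in control granulocyte cultures 2 lower [1], the interactions 2 positive at day 0 to 3 [1] and 1 negative at day 3 to 7 of the macrophage course [0], and the courses 4 higher at day 7 in knockout cells [2] and in controls [1]. With every gene tested, 1 was higher at day 0 [2] and at day 5 of the macrophage course [2], 1 lower from day 3 to 5 in control macrophage cultures [2], 0 negative in the day 3 to 7 interaction of the granulocyte course [1], and 0 higher between courses at day 5 in knockout cells [1] and at day 7 in controls [1]. A pseudocount of 0.1 TPM gave 1 lower at day 0 [0], and one of 5 TPM gave 1 lower from day 3 to 5 in control macrophage cultures [2] and 0 higher between courses at day 5 in knockout cells [1]. The compared groups alone gave 5 higher at day 7 of the macrophage course [8], 2 higher from day 3 to 5 in knockout granulocyte cultures [0], 4 positive in the day 0 to 3 interaction [1], 0 negative in the day 3 to 7 interaction of the granulocyte course [1], and 1 and 2 higher between courses at day 7 in knockout cells [2] and controls [1].

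With the replicate number as a block 96 of the 98 values kept their call. Where the numbers were taken to pair the samples, the block gave 3 lower between courses at day 5 in controls [1] and 4 higher at day 7 in knockout cells [2] and in controls [1]. Where they share only a number, it gave 1 lower at day 0 [0], 3 lower at day 5 of the granulocyte course [1], 2 positive in the day 0 to 3 interaction [1] and 1 negative in the day 3 to 7 interaction of the macrophage course [0]; Gsr at day 0 (adjusted p = 0.0547) and Srxn1 from day 3 to 5 in control granulocyte cultures (adjusted p = 0.052) then missed the threshold in limma.

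With each library left out in turn, knockout against control gave 1 to 2 higher and 0 to 1 lower at day 0, 0 to 1 lower at day 3, 1 to 2 higher at day 5 and 4 to 8 higher at day 7 of the macrophage course, and 1 to 2 lower at day 5 and 5 to 8 higher at day 7 of the granulocyte course. Time steps gave 1 to 2 lower from day 0 to 3 in controls, 2 to 3 higher and 1 to 3 lower from day 3 to 5 in knockout macrophage cultures, and 1 to 2 lower in control macrophage cultures. Interactions gave 0 to 1 positive and 1 to 2 negative from day 0 to 3, and from day 3 to 7 3 to 6 positive in the macrophage and 3 to 7 positive and 0 to 1 negative in the granulocyte course. Between courses, 0 to 1 were higher at day 5 in knockout cells, 0 to 1 lower at day 5 in controls, 2 to 4 higher and 2 to 4 lower at day 7 in knockout cells, and 0 to 2 higher at day 7 in controls.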
